A study of Mus musculus with 8 samples.

Results

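Of the 12592 open-chromatin sites that all 8 DNase-seq libraries of mouse 3134 cells listed, 1824 (14.5%) were under 800 bp wide, and these narrow sites are described here. A hotspot is a stretch of the genome where DNase I cuts were dense, and coordinates are on mouse build mm9. Hotspots of the 8 lists were merged where they overlapped by at least 1 bp, which gave 99999 sites, and the width of a site was its merged end minus its start. The listing in all 8 libraries and the width therefore chose the members, and both depend on the measured densities, so levels, widths and ratios of the members are given as descriptions with no test. The other 10768 sites listed in all 8 libraries, called wide sites below, served for comparison.

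The 8 groups came from 4 lines of 3134 cells, a mouse mammary epithelial line. The DNBrg1, DNCHD4 and DNSnf2h lines carry a dominant-negative form of Brg1, Chd4 or Snf2h that is repressed by tetracycline, and the parental 3134 line was grown the same way. Per the labels, the Snf2h construct is human SNF2H with lysine 211 changed to arginine, and the Chd4 construct is mouse Chd4 with lysine 250 changed to cysteine, each FLAG-tagged and integrated by retrovirus into cells that hold the tetracycline transactivator. The Brg1 construct is not described there. Each line was measured once after 48 hours without tetracycline and once with it, 1 library per group. The differences below therefore rest on single libraries without replicates, and intervals cover counting error only. All lines had been kept in 5 µg/ml tetracycline, and nuclei were digested with 60 to 80 U/ml DNase I for 3 min.

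Nucleosomes hide most DNA from DNase I, and sites where they are displaced, such as active promoters, enhancers and insulators, are cut far more often. Brg1 is the ATPase of SWI/SNF complexes, which slide and evict nucleosomes. Chd4 is the ATPase of the NuRD complex, which couples remodeling to histone deacetylation, and Snf2h drives the ISWI complexes, which space nucleosomes. A dominant-negative ATPase enters its complexes without being able to remodel. The genes, promoters and sequences at these sites were not analysed here, because no genome or annotation of build mm9 was used.

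Narrow sites ranged from 391 to 799 bp, with a median of 749 bp, against a median of 1126 bp at wide sites. In each library a narrow site consisted of exactly 1 hotspot, whereas 2067 wide sites (19.2%) had more than 8 hotspots in all. Width under 800 bp was common among sites seen rarely and uncommon among sites seen everywhere. It applied to 99.3% of the 51353 sites listed in 1 library, to 43.3% of the 5202 sites listed in 7 and to 14.5% of those listed in all 8. The merged width is the outer extent over the lists, so it can only grow with the number of lists that hold a site. At narrow sites the stretch covered by all 8 hotspots had a median of 450.5 bp (quartiles 398 and 498), with 1 site at which no base was covered by all 8. The middles of the 8 hotspots lay within a median of 84.0 bp of each other. The outer edges came most often from the DNCHD4 library with tetracycline, which set 708 left and 729 right edges. The DNCHD4 library without tetracycline came next, with 401 left and 416 right edges.

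**Figure D1:**
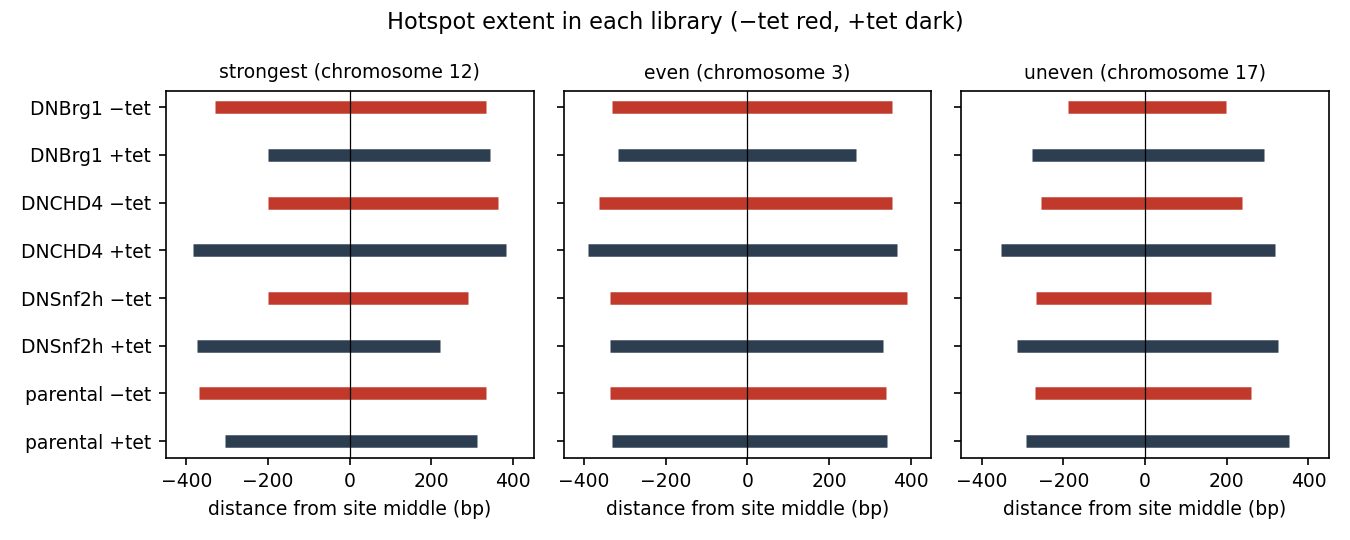
Extent of the hotspot in each of the 8 libraries (rows, libraries without tetracycline in red and with it in dark) as distance in bp from the middle of the merged site, for 3 narrow sites. The hotspots of the 3 sites overlap in all 8 libraries, and at the uneven site on chromosome 17 the 4 libraries without tetracycline have the shorter hotspots.

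Members just inside and sites just outside the width limit were close in strength. The 407 members of 780 to 799 bp had a median strength of 39.3, and the 453 sites of 800 to 819 bp had one of 41.2. Strength here is the geometric mean of the peak density over the 8 libraries, where peak density is the highest tag density of a hotspot. The site on chromosome 12 from 56086995 to 56087794, 799 bp wide, had a strength of 28.5. The site on chromosome 13 from 118198513 to 118199312, also 799 bp wide, had a strength of 37.0. Just outside, a site on chromosome 1 from 75389475 to 75390275 was 800 bp wide with a strength of 29.8, and one on chromosome 3 from 94460041 to 94460841 was 800 bp wide with a strength of 34.2.

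Narrow sites were the weaker of the sites found everywhere. Their median strength was 29.9 (quartiles 23.1 and 41.1), against 58.8 (quartiles 39.0 and 93.1) at wide sites. Among narrow sites, width and strength went together, with a Spearman rho of 0.42 across the 1824 sites, which share the same 8 libraries. The 458 narrowest, of 391 to 713 bp, had a median strength of 23.5, and the 435 widest, of 778 to 799 bp, one of 39.3.

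The median level of narrow sites was lowest in the 2 DNSnf2h libraries, and within each line it was lower without tetracycline. In DNBrg1 cells the median peak density of narrow sites was 24.5 without and 43.4 with tetracycline. DNCHD4 cells had 44.3 without and 50.2 with it, and DNSnf2h cells had 14.1 without and 15.1 with it. In parental cells the medians were 34.0 without and 43.9 with tetracycline. These densities carry a scaling factor of each library whose target is not given, so their order between libraries is not a result on accessibility. The mean density over the hotspot had medians of 7.74 without and 14.4 with tetracycline in DNBrg1 and of 14.2 without and 16.4 with it in DNCHD4. The medians of DNSnf2h were 4.31 without and 4.55 with it, and those of parental cells 11.0 without and 14.2 with it.

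Each list's peak densities step by a fixed amount (100% of values lie within 0.05 steps of a whole number). This step was taken as the density of 1 tag, which gives the tags behind a peak density, not those of the whole site. The median peak density of narrow sites stood for 96 tags without and 74 with tetracycline in DNBrg1, and 226 without and 281 with it in DNCHD4. It stood for 70 tags without and 81 with tetracycline in DNSnf2h, and 132 without and 142 with it in parental cells. Counting error on these tags was 5.97% to 11.95% of the peak density. Every list also has a lowest density, and many narrow sites stood close to it in DNSnf2h cells. There, 62.8% of them without and 54.6% with tetracycline had less than 2 times the lowest density of the list, against 17.6% without and 16.8% with it in parental cells and under 1% in both DNCHD4 libraries.

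**Figure D2:**
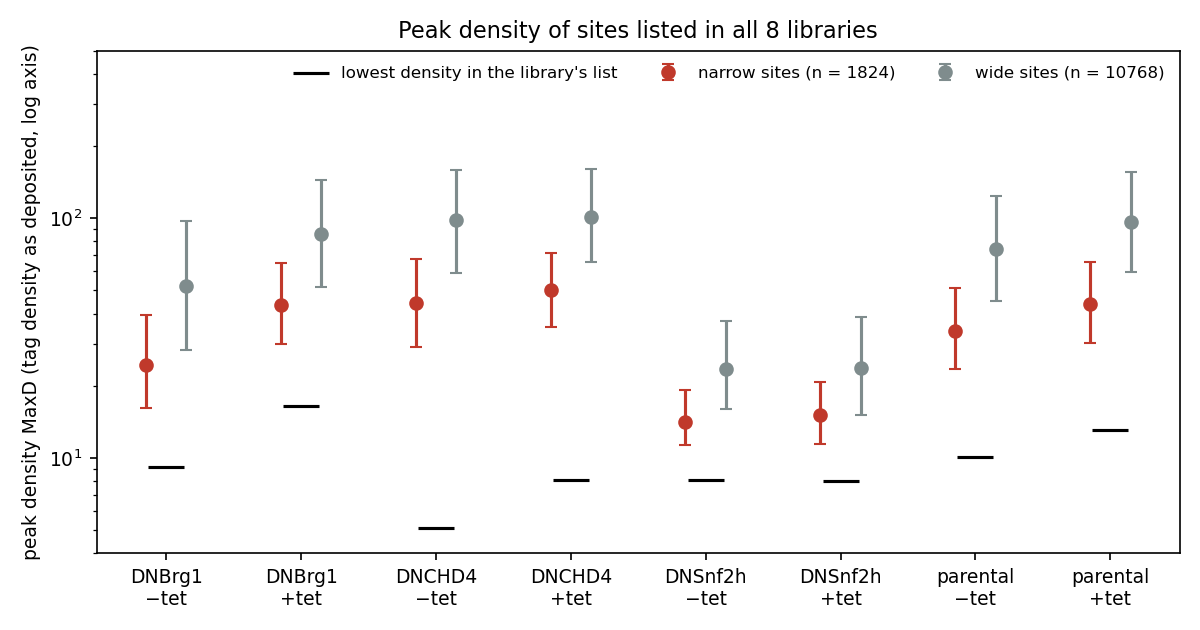
Peak density as deposited (log axis) in each library, as the median with the quartiles (bars) for narrow sites (red) and wide sites (grey), with the lowest density of each list as a black dash. Narrow sites lie below wide sites in every library, and come closest to the lowest listed density in the 2 DNSnf2h libraries, at medians of 14.1 and 15.1.

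To set narrow sites against wide ones of the same strength, the strength range of the narrow sites was divided into 20 bins of 91 or 92 narrow sites, each holding 77 or more wide sites. Values of wide sites are bin values weighted by the number of narrow sites. In 19 bins the mean log2 strength of narrow and wide sites differed by at most 0.03, but in the strongest bin wide sites stood higher by 0.33 on the log2 scale.

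At the same strength, narrow sites were filled more evenly than wide ones. The mean density of a hotspot was 0.32 of its peak density at narrow and 0.26 at wide sites in DNBrg1 cells without tetracycline, and 0.33 at narrow and 0.27 at wide sites with it. In DNCHD4 cells the values were 0.32 at narrow and 0.25 at wide sites without tetracycline, and 0.33 at narrow and 0.25 at wide sites with it. DNSnf2h cells had 0.30 at narrow and 0.26 at wide sites in both states, and parental cells had 0.33 at narrow and 0.26 at wide sites in both. The hotspots themselves were also shorter at narrow sites, 699 bp against 946 bp with tetracycline in DNCHD4 cells and 527 bp against 583 bp without it in DNSnf2h cells. The width that chose the sites bears on this difference, whose size in other samples was not tested.

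**Figure D3:**
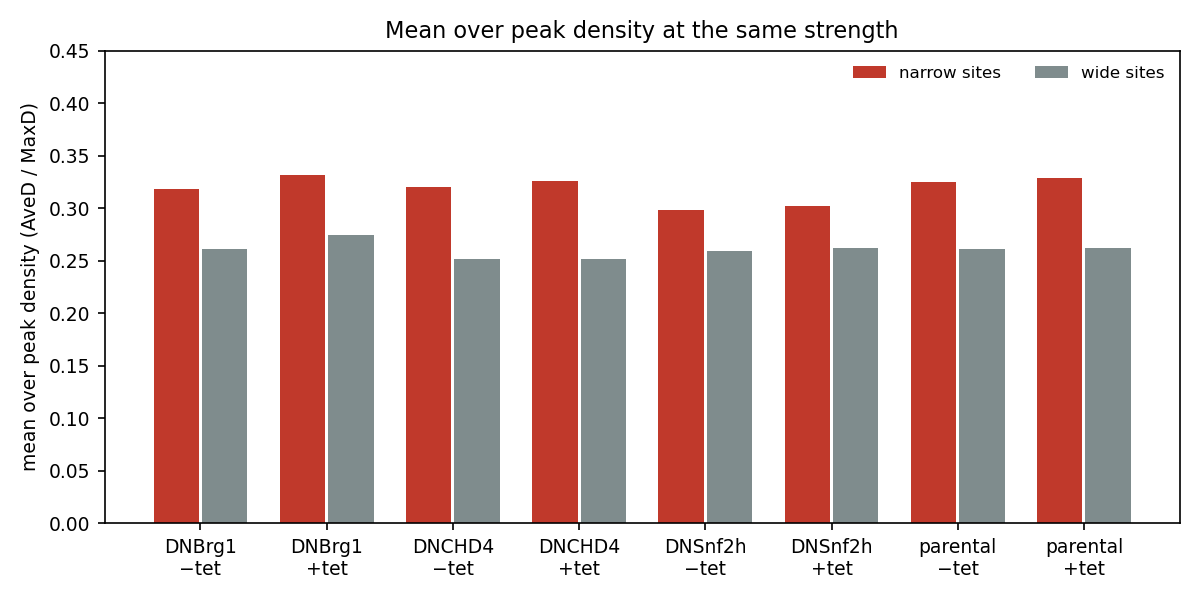
Mean over peak density (AveD divided by MaxD, no unit, axis from 0) at narrow (red) and wide (grey) sites of the same strength in the 8 libraries. Narrow sites stand higher in all 8, at 0.30 to 0.33 against 0.25 to 0.27.

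The ratio of peak density without over with tetracycline was then taken at each site, on the log2 scale. Because the scaling target of the libraries is unknown, the median ratio of all sites listed in both libraries of a line was set to 0. This moved the log2 ratios by 0.64 in DNBrg1, -0.03 in DNCHD4, 0.02 in DNSnf2h and 0.40 in parental cells. Centred in this way, the median log2 ratio of narrow sites was -0.07 for DNBrg1 (SD 0.68 across sites), -0.18 for DNCHD4 (SD 0.59), -0.05 for DNSnf2h (SD 0.55) and 0.03 for parental cells (SD 0.46). As deposited, the medians were -0.71, -0.15, -0.06 and -0.38 in the same order of lines. Below 0 after centring were 1006 narrow sites (55.2%) in DNBrg1, 1156 (63.4%) in DNCHD4, 987 (54.1%) in DNSnf2h and 867 (47.5%) in parental cells. Both libraries had to list a site for it to be a member, so a fall that took a site below the lowest listed density is not among these ratios. At the width limit, the median ratio of the 407 members of 780 to 799 bp and of the 453 sites of 800 to 819 bp was -0.06 inside and -0.14 outside in DNBrg1. It was -0.19 inside and -0.18 outside in DNCHD4, -0.13 inside and -0.05 outside in DNSnf2h, and -0.01 inside and -0.04 outside in parental cells.

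Without regard to strength, narrow sites had lower median ratios than wide sites in every line, least so in parental cells. At the same strength the gap was smaller in the 3 dominant-negative lines, and narrow sites stood above wide ones in DNSnf2h and parental cells. Before matching, the narrow median stood 0.11 below the wide one in DNBrg1, 0.13 below in DNCHD4, 0.12 below in DNSnf2h and 0.02 below in parental cells, on the log2 scale. At the same strength, the difference of narrow minus wide sites was -0.01 in DNBrg1 and -0.01 in DNCHD4. It was 0.03 in DNSnf2h and 0.05 in parental cells. In the 20 strength bins, narrow sites were below wide ones in 9 bins in DNBrg1, 10 in DNCHD4, 8 in DNSnf2h and 7 in parental cells. The differences depended on how strength was measured. With strength taken from the 4 libraries with tetracycline alone, which are the denominators of the ratios, they were -0.16, -0.16, -0.13 and -0.05 in DNBrg1, DNCHD4, DNSnf2h and parental cells. Narrow sites defined by a median, not merged, hotspot width under 800 bp gave -0.15, -0.06, -0.07 and -0.004 in the same order of lines. With a width limit of 1000 bp the differences were -0.10, -0.07, -0.09 and 0.03. With the mean in place of the peak density they were -0.03, -0.08, -0.02 and 0.04. The sign in DNSnf2h thus turned with the setting. With hotspots under a common density threshold of 16.4 left out of every list, which left 368 narrow sites, the differences were above 0 in every line, at 0.06, 0.04, 0.06 and 0.05 in the same order.

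Strength itself separated narrow sites in the DNCHD4 line. The 608 weakest, of strength 12.2 to 25.5, had a median log2 ratio of -0.33. The 608 in the middle had -0.21, and the 608 strongest, from 36.6 on, had -0.06. From weak to strong, the same 3 sets had -0.10, -0.08 and 0.04 in DNSnf2h cells, -0.10, -0.16 and -0.02 in DNBrg1 cells, and 0.02, 0.01 and 0.04 in parental cells. In DNCHD4, wide sites also went up with strength, which the plot of ratio by strength shows.

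**Figure D4:**
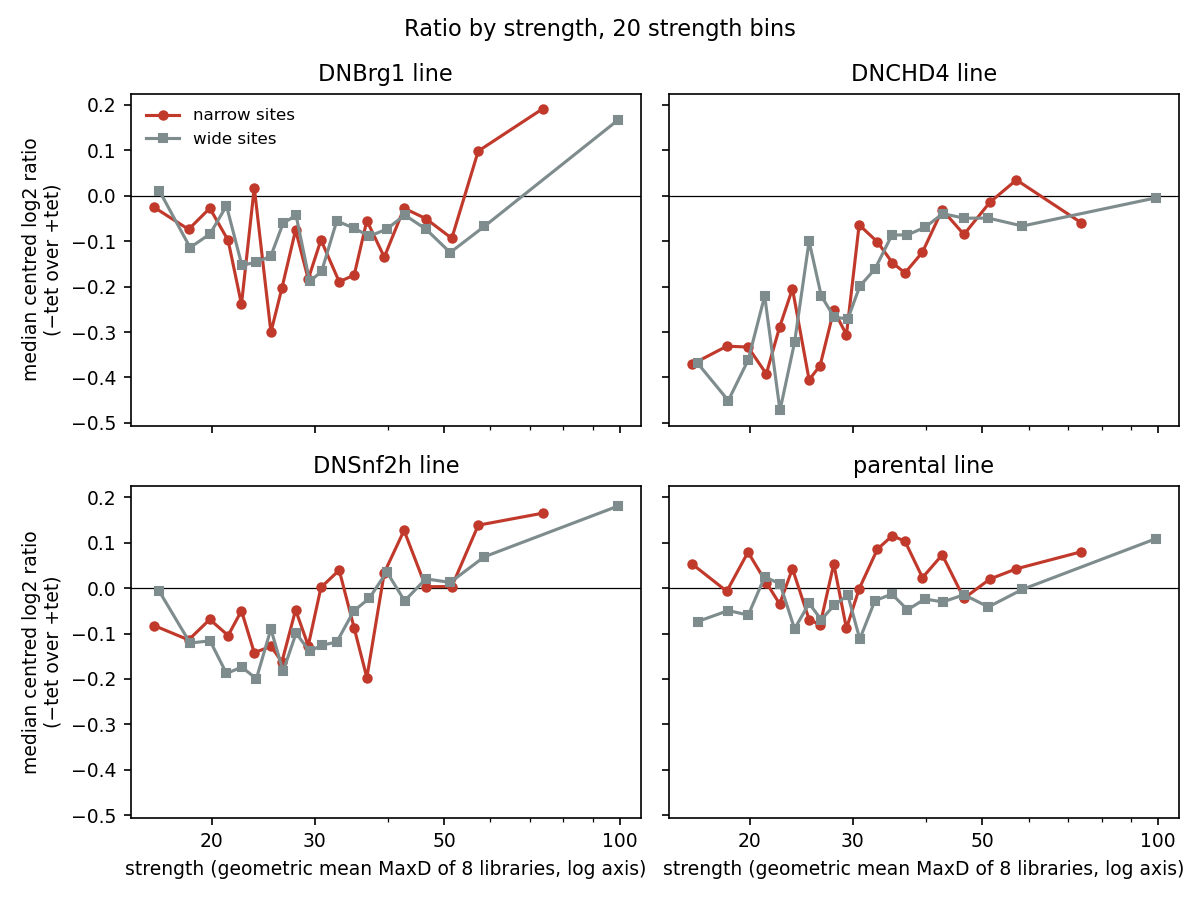
Median centred log2 ratio of peak density, without over with tetracycline, in 20 bins of strength (log axis, geometric mean peak density of 8 libraries) for narrow sites (red) and wide sites (grey) in each line. The 2 curves cross in every line, and in DNCHD4 both start near -0.37 at the weakest sites and are closer to 0 at the strongest. The strongest bin holds 4857 wide sites that are stronger than its 92 narrow ones.

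Counting sites changed at least 2-fold, 1286 narrow sites (70.5%, 95% Wilson interval 68.4 to 72.6) stayed under 2-fold in all 4 lines after centring. At wide sites of the same strength the share was 69.0%. In DNBrg1 cells 197 narrow sites were at least 2-fold lower without tetracycline, which is 10.8% (9.46 to 12.3). The background, over all 22627 sites listed in both DNBrg1 libraries, was 6.96%, and wide sites of the same strength had 9.68%. At least 2-fold higher were 85 narrow sites (4.66%), beside a background of 2.81% and 3.59% at wide sites of the same strength. As deposited, the counts in DNBrg1 were 596 lower and 6 higher narrow sites, beside backgrounds of 26.2% and 0.208%.

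In DNCHD4 cells 175 narrow sites (9.59%, interval 8.33 to 11.0) were lower, beside a background of 8.51% and 13.2% at wide sites of the same strength. The 34 higher ones (1.86%) compare with a background of 5.38% and with 2.53% at wide sites of the same strength. As deposited, 160 narrow sites were lower and 39 higher in DNCHD4, beside backgrounds of 7.87% and 5.93%. In DNSnf2h cells 106 narrow sites (5.81%) were lower and 45 (2.47%) higher, beside backgrounds of 6.39% and 2.53%. Wide sites of the same strength had 7.43% lower and 2.03% higher there. As deposited, the DNSnf2h counts were 113 lower and 41 higher, beside backgrounds of 6.74% and 2.36%. In parental cells 19 narrow sites (1.04%) were lower and 49 (2.69%) higher, beside backgrounds of 1.82% and 2.09%. Wide sites of the same strength had 2.76% lower and 2.37% higher in parental cells. As deposited, parental cells had 141 lower and 7 higher narrow sites, beside 8.70% and 0.525% of all sites.

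The lowest listed density limited these counts unequally. A 2-fold lower value could still have been listed at all 1824 narrow sites in DNCHD4, at 1388 in DNBrg1, at 1495 in parental cells and at 789 in DNSnf2h. A 2-fold higher call was possible at 1734 in DNCHD4, 1080 in DNBrg1, 1521 in parental cells and 690 in DNSnf2h. The counts of DNSnf2h are thus out of fewer sites than those of the other lines. The spread of the ratios within strength bins was 0.67 at narrow and 0.67 at wide sites in DNBrg1. It was 0.58 at narrow and 0.64 at wide sites in DNCHD4 (SD, log2 scale). DNSnf2h cells had 0.55 at narrow and 0.58 at wide sites, and parental cells 0.46 at narrow and 0.49 at wide sites.

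Single sites are ranked here, and in the ranks of strength and evenness further on, among those off chromosome 18 with at most 10 other sites within 50 kb. The 2 narrow sites that were lowest in DNBrg1 cells were lower without tetracycline in the other 3 lines too. Site A, on chromosome 9 from 52280753 to 52281549, showed peak densities of 9.95 without and 85.5 with tetracycline in DNBrg1 cells. It had 44.8 without and 96.4 with tetracycline in DNCHD4 cells, and 9.07 without and 25.2 with it in DNSnf2h cells. In parental cells it had 34.0 without and 71.0 with tetracycline. Each line's library without tetracycline was thus the lower one, and the centred log2 ratios were -2.46 in DNBrg1 (95% exact interval -3.01 to -1.94), -1.14 in DNCHD4, -1.46 in DNSnf2h and -0.66 in parental cells. Without tetracycline, the lowest listed density was 9.185 in DNBrg1 and 8.06 in DNSnf2h. Site A stood near both, as did site C below, and lower values would not have been listed. The intervals take no account of this limit. Here and below, the intervals of the lowest and highest sites also take no account of the choice of these sites by their ratios. That choice favours extreme ratios, and intervals around them, in the line used for the ranking. Site B, on chromosome 1 from 82185978 to 82186736, had 12.2 without and 98.4 with tetracycline in DNBrg1, a centred log2 ratio of -2.36 (-2.86 to -1.89). In parental cells it had 34.5 without and 66.7 with tetracycline, a ratio of -0.55. DNCHD4 cells had 49.9 without and 89.5 with it, a ratio of -0.87, and DNSnf2h cells 10.7 without and 29.1 with it, a ratio of -1.43.

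Site C, on chromosome 17 from 44171814 to 44172521, was the lowest narrow site in both DNCHD4 and DNSnf2h cells. Its density was 12.5 without and 80.0 with tetracycline in DNCHD4, a centred log2 ratio of -2.71 (-3.11 to -2.33). In DNSnf2h cells it was 9.67 without and 39.8 with tetracycline, a ratio of -2.02 (-2.51 to -1.57). DNBrg1 cells had 10.5 without and 32.8 with it, and parental cells 19.8 without and 61.1 with it, a parental ratio of -1.22. It was one of 2 narrow sites (0.110%) at least 2-fold lower in all 4 lines, against 0.407% of wide sites of the same strength. The other, on chromosome 17 from 72354544 to 72355269 and named after its values were seen, had ratios of -1.05, -1.09, -1.22 and -1.05 in DNBrg1, DNCHD4, DNSnf2h and parental cells. Site D, on chromosome 15 from 62152349 to 62153135, had 15.9 without and 75.7 with tetracycline in DNCHD4, a ratio of -2.29 (-2.65 to -1.94). It had 14.3 without and 71.5 with tetracycline in DNBrg1, a ratio of -1.68, and 18.3 without and 48.4 with it in parental cells. DNSnf2h cells had 11.7 without and 23.5 with it, a ratio of -0.99.

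At site E, on chromosome 3 from 94138207 to 94138940, lines went opposite ways. DNBrg1 cells had 39.3 without and 24.6 with tetracycline, a centred log2 ratio of 1.32 (0.82 to 1.85). DNSnf2h cells had 13.9 without and 54.7 with it, a ratio of -1.96 (-2.36 to -1.58). DNCHD4 cells had 19.8 without and 30.8 with it, and parental cells 18.8 without and 20.2 with it, which is 0.30 after centring with an interval that includes 0 (-0.20 to 0.81). The density with tetracycline in DNSnf2h cells was the highest of the 8 values, although that library was among the lowest at narrow sites in general.

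Among the highest ratios, site F on chromosome 6 from 3151116 to 3151896, 79 bp from another merged site, led in DNBrg1 cells. It had 378 without and 152 with tetracycline in DNBrg1, a centred log2 ratio of 1.96 (1.77 to 2.16), and 471 without and 201 with it in DNCHD4. In DNSnf2h it had 165 without and 80.3 with tetracycline, and in parental cells 377 without and 227 with it. All 4 libraries without tetracycline were higher, also as deposited, and the parental centred ratio was 1.13. Site G, on chromosome 1 from 102076448 to 102077130, had 119.9 without and 49.8 with tetracycline in DNBrg1, a ratio of 1.91 (1.58 to 2.26), and 120.7 without and 61.7 with it in parental cells, a ratio of 1.37. It had 102 without and 65.8 with tetracycline in DNCHD4, and 34.5 without and 18.7 with it in DNSnf2h. Site H, on chromosome 3 from 37201470 to 37202176 and 293 bp from another site, had 72.9 without and 19.9 with tetracycline in DNCHD4. This was a ratio of 1.84 (1.53 to 2.16). Parental cells had 34.0 without and 18.6 with it there, a ratio of 1.27, and in DNBrg1, with 21.7 without and 30.5 with it, the ratio of 0.15 had an interval that includes 0 (-0.36 to 0.68). A second high site of DNCHD4, on chromosome 11 from 75059972 to 75060692, had 57.4 without and 15.9 with tetracycline, a ratio of 1.82, beside 27.8 without and 18.9 with it in parental cells.

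Site I, on chromosome 5 from 38418751 to 38419460, was the highest of the ranked sites in DNSnf2h cells, where the highest of all narrow sites had a ratio of 1.58. It had 23.8 without and 8.78 with tetracycline there, a centred log2 ratio of 1.45 (0.96 to 1.97), and 46.9 without and 37.8 with it in parental cells, a ratio of 0.71. The lowest density of the DNSnf2h list with tetracycline was 8.03, close to the value of site I. DNCHD4 cells had 59.1 without and 28.3 with it, and DNBrg1 cells 19.4 without and 20.5 with it. The next one, on chromosome 9 from 3258470 to 3259147, had 24.8 without and 9.90 with tetracycline in DNSnf2h, a ratio of 1.34 (0.87 to 1.83). It had 60.5 without and 43.1 with tetracycline in parental cells, a ratio of 0.89. Sites F and this last one lie 151 kb and 120.5 kb from the first site listed on their chromosomes. In parental cells the lowest narrow site lay on chromosome 8 from 14746076 to 14746847, 140 bp from another site. It had 14.2 without and 56.1 with tetracycline, a ratio of -1.58 (-2.05 to -1.14). It was also lower in DNBrg1, at 11.7 without and 72.1 with tetracycline, and in DNCHD4, at 23.5 without and 79.1 with it. The second lowest, on chromosome 11 from 17970755 to 17971499, had a parental ratio of -1.38 and a DNBrg1 ratio of -1.60. The highest parental site, on chromosome 6 from 136499235 to 136499992, had 55.3 without and 20.2 with tetracycline, a ratio of 1.86 (1.45 to 2.28), and the next, on chromosome 1 from 183778138 to 183778881, had 42.0 without and 16.1 with it, a ratio of 1.78.

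**Figure D5:**
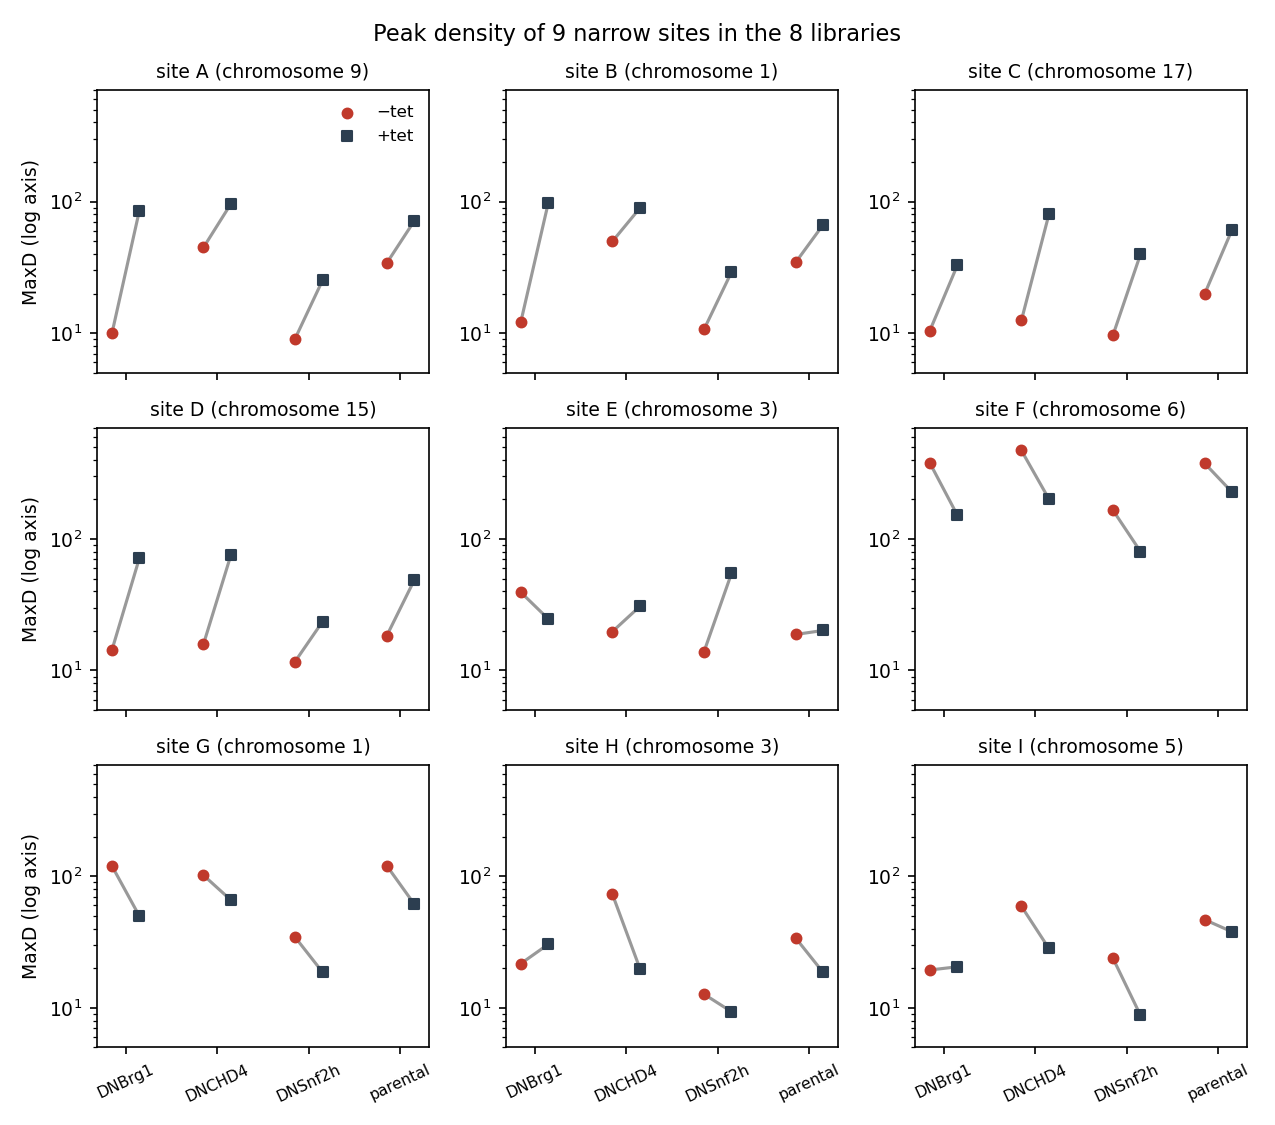
Peak density (log axis) of narrow sites A to I in the 4 lines, without tetracycline (red circle, left) and with it (dark square, right). Sites A to D are lower without tetracycline in all 4 lines, site E is higher in DNBrg1 and lower in DNSnf2h, and sites F and G are higher without tetracycline in all 4 lines.

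At the 2-fold cut, most narrow sites called in a direction were called in 1 line, with the limits on calls given above. At least 2-fold lower after centring in exactly 1 line were 301 narrow sites (16.5%), in 2 lines 70 (3.84%) and in 3 lines 16 (0.877%). Wide sites of the same strength had 14.9%, 5.53% and 1.82%. At least 2-fold higher in exactly 1, 2 and 3 lines were 125 (6.85%), 24 (1.32%) and 8 (0.439%) narrow sites. Wide sites of the same strength had 7.16%, 0.795% and 0.503% in that direction. Between DNBrg1 and DNCHD4, 45 narrow sites were lower in both, 22.8% of the DNBrg1 and 25.7% of the DNCHD4 ones. DNBrg1 and DNSnf2h shared 17, or 8.63% and 16.0% of theirs, and DNCHD4 and DNSnf2h shared 40, or 22.9% and 37.7%. Over all narrow sites, 10.8% were lower in DNBrg1, 9.59% in DNCHD4 and 5.81% in DNSnf2h. As shares of all narrow sites the 3 overlaps were 2.47%, 0.932% and 2.19%, against 3.53%, 1.67% and 4.02% of wide sites of the same strength. Higher in both lines were 12, 10 and 10 narrow sites in the same order of pairs, and here the narrow shares were the larger. They were 0.658%, 0.548% and 0.548%, against 0.442%, 0.175% and 0.331% of wide sites of the same strength. At least 2-fold higher in all 4 lines were 4 narrow sites (0.219%), against 0.0658% of wide sites of the same strength. They are site F, 2 further sites on chromosome 6, from 94776631 to 94777238 and from 114914095 to 114914801, and one on chromosome 8 from 3754204 to 3754906, with parental ratios of 1.13, 1.38, 1.11 and 1.34. The last 3 were named after their values were seen, and the site starting at 114914095 lies in a crowded stretch with 23 other sites within 50 kb. Across the 1824 sites, which share their libraries, the Spearman correlation of centred ratios was 0.43 between DNBrg1 and DNCHD4, 0.17 between DNBrg1 and DNSnf2h and 0.41 between DNCHD4 and DNSnf2h. With the parental ratios it was 0.43 in DNBrg1, 0.45 in DNCHD4 and 0.20 in DNSnf2h. Across wide sites the correlations of the same pairs were 0.46, 0.29 and 0.58, and with the parental ratios they were 0.51, 0.44 and 0.23. No library is shared between lines in these values, and the cause of the correlations was not tested.

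Set against parental cells, narrow sites in the dominant-negative lines had lower ratios after centring. As deposited, the median log2 ratio was -0.71 in DNBrg1, -0.15 in DNCHD4 and -0.06 in DNSnf2h, against -0.38 in parental cells. The direction in DNCHD4 and DNSnf2h thus turned with the scaling. The line's centred log2 ratio minus the parental one had a median of -0.11 in DNBrg1, -0.24 in DNCHD4 and -0.09 in DNSnf2h. Below 0 in that order were 1073 (58.8%), 1235 (67.7%) and 1026 (56.2%) narrow sites. These 3 values share the parental libraries. At the same strength the value was -0.12 at narrow and -0.04 at wide sites in DNBrg1, and -0.24 at narrow and -0.22 at wide sites in DNCHD4. DNSnf2h gave -0.09 at narrow and -0.08 at wide sites. The level of DNBrg1 cells relative to parental cells with tetracycline, which represses the construct, had a median log2 of 0.01 at narrow and -0.10 at wide sites of the same strength. The same comparison without tetracycline gave -0.36 at narrow and -0.40 at wide sites. In DNCHD4 and DNSnf2h cells, narrow and wide sites of the same strength differed by at most 0.03 in either state.

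The 3 strongest narrow sites stood far above the rest and shared a pattern, although 2 of them are neighbours. The strongest, on chromosome 12 from 98299502 to 98300268, had 1036 without and 1073 with tetracycline in DNBrg1, and 689 without and 1505 with it in DNCHD4. It had 362 without and 830.1 with tetracycline in DNSnf2h, and 527 without and 881 with it in parental cells. Centred log2 ratios were 0.59, -1.16, -1.18 and -0.34 in DNBrg1, DNCHD4, DNSnf2h and parental cells. The next 2 lie 244 bp apart on chromosome 4, from 79649995 to 79650757 and from 79649017 to 79649751, with strengths of 670.1 and 626. The ratios of the first were 0.35, -0.97, -1.01 and -0.36, and those of the second 0.37, -1.06, -1.18 and -0.36, in the same order of lines. As deposited, the DNBrg1 ratio of all 3 sites was below 0, from -0.29 to -0.05, so the direction in DNBrg1 turned with the scaling. Site F, of strength 223, went the other way in DNCHD4 and DNSnf2h, with centred ratios of 1.19 and 1.06.

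To compare the 8 libraries at 1 site, each was centred on its median over all sites listed in all 8. The range over the 8 libraries was then 1.41 log2 units at the median narrow site, and at the same strength it was 1.40 at narrow and 1.44 at wide sites. The most even narrow site, on chromosome 1 from 154751450 to 154752217, spanned 1.26-fold over the 8 libraries, with 20.9 without and 35.2 with tetracycline in DNBrg1 and 38.0 without and 35.6 with it in DNCHD4. It had 9.47 without and 9.15 with tetracycline in DNSnf2h, and 23.7 without and 30.7 with it in parental cells. All 4 of its centred ratios had intervals that include 0, which its choice as the most even site favours. On chromosome 3 from 19350810 to 19351589, a site of strength 96.4 spanned 1.29-fold, and on chromosome 9 from 54798141 to 54798921 one spanned 1.32-fold. The least even site, on chromosome 1 from 65436020 to 65436800, spanned 14.1-fold, with 9.60 without and 29.3 with tetracycline in DNCHD4 and 11.9 without and 34.0 with it in DNSnf2h. Sites C and E, the next in this order, spanned 12.7-fold and 11.0-fold. In all 3 the DNSnf2h library with tetracycline was the highest after centring. That library was the highest of the 8 at 649 narrow sites (35.6%), against 25.7% of all wide sites, and the DNSnf2h library without tetracycline at 364 (19.96%), against 9.53%. These shares are not matched for strength. At the same strength, the median centred level in DNSnf2h with tetracycline was -0.51 at narrow and -0.45 at wide sites. Without tetracycline it was -0.57 at narrow and -0.54 at wide sites, so narrow sites were not the higher ones. Membership required listing in both DNSnf2h lists, so the rule bears on these shares.

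Levels at narrow sites were ordered alike in the parental and DNCHD4 lines. The Spearman correlation across the 1824 sites was 0.90 between DNCHD4 and parental cells with tetracycline and 0.87 without it, and 0.82 between the 2 parental libraries. Between the 2 DNBrg1 libraries it was 0.62, between the DNCHD4 ones 0.73 and between the DNSnf2h ones 0.50. The lowest of all, 0.11, was between DNBrg1 without and DNSnf2h with tetracycline.

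Narrow sites lay on every chromosome with sites listed in all 8 libraries. They were 10.9% (8.04 to 14.6) of the sites listed in all 8 libraries on chromosome 14 and 11.2% (7.97 to 15.4) on chromosome X, and 17.2% (14.4 to 20.3) on chromosome 6, the lowest and highest shares. The Wilson intervals of chromosomes 14 and 6 overlap. On chromosome 14 the level of DNBrg1 relative to parental cells at the 38 narrow sites had a median log2 of -0.72 without and -0.43 with tetracycline, and on chromosome 18, with 41 narrow sites, -0.79 without and -0.45 with it. At the 82 narrow sites of chromosome 15 it was -0.12 without and 0.28 with tetracycline. The same shift was there at wide sites of chromosome 14, at -0.82 without and -0.60 with tetracycline, so wide sites showed it too. Without chromosomes 14 and 18, the DNBrg1 difference between narrow and wide sites of the same strength was -0.01, as with them.

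Neighbouring sites were at similar distances. The nearest other merged site was 2970 bp away at narrow and 2711 bp away at wide sites of the same strength, both given as weighted bin medians, against a median of 4629 bp over all 99999 sites. No other site within 10 kb was found at 344 narrow sites (18.9%), against 20.1% of wide sites of the same strength. More than 10 other sites within 50 kb were found at 420 narrow sites (23.0%), against 19.96% of wide ones.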

How the data were processed

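CASAVA 1.6 and build mm9 are named in the submitters' processing notes. How hotspots were found and filtered is not stated in the labels. The authors deposited a hotspot table for each library, with the highest (MaxD) and mean (AveD) tag density of each hotspot, which are a signal (coverage density) scaled per library. Peak densities were divided by their step, taken as the density of 1 tag, to obtain tags. Total depth is unknown. Where a site held several hotspots of a list, the one with the highest MaxD gave its value. Sites were called changed at 2-fold.

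Groups came from the submitters' labels. With 1 library per group no test was run. Intervals are 95%, exact binomial on tags for ratios and Wilson for shares. Named sites, with at most 10 other sites within 50 kb, were the 3 strongest, the 3 most and 3 least even over the libraries, the 2 lowest and 2 highest ratios of each line, and 2 on each side of the width limit whose strength was nearest the median. Sites of chromosome 18 were not named. The members and these rules were chosen with earlier results of these data known. The planned distances to gene starts, base composition and motifs were not run, since they need a genome of build mm9. The ratio and call steps were tested on simulated data, with counting error only and at sites already chosen. The simulation had no lowest listed density, so it does not cover the effect of listing. The alternatives tried are given with their effects at the end. Python 3.11.15 was used with numpy 2.4.6, scipy 1.17.1, matplotlib 3.10.9 and pandas 2.3.3.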

Additional observations from a re-analysis of the deposited data

Results flagged for a closer look

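Site E, on chromosome 3 from 94138207, moved at least 2-fold in opposite directions in 2 lines, with a centred log2 ratio of 1.32 in DNBrg1 and -1.96 in DNSnf2h, and this difference between lines was not tested, since each line has 1 library per state. The median centred log2 ratio of narrow sites was below 0 in DNBrg1 (-0.0698), DNCHD4 (-0.179) and DNSnf2h (-0.0469) and above 0 in parental cells (0.0257), which was not tested either. As deposited, the medians were below 0 in every line, at -0.715 in DNBrg1, -0.146 in DNCHD4, -0.0638 in DNSnf2h and -0.377 in parental cells. This contrast in sign therefore depends on the centring.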

How the results depend on the processing

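No paired analysis was possible because the 2 groups compared within a line hold 1 library each, so none could be left out either. A fit of the tetracycline state over the 4 lines with line as a block was not run. Values were computed under 11 settings, and under 1 more, chosen after the data were seen, that leaves out the strongest strength bin. The difference of mean over peak density between narrow and wide sites stayed within 0.05 to 0.07 under the 10 settings that bear on it. The number of narrow sites was 5564 with a limit of 1000 bp, 6421 by median hotspot width, 368 at a common density threshold of 16.4 and 6282 without the DNSnf2h lists. The difference of median log2 ratio, narrow minus wide, was -0.156, -0.161, -0.127 and -0.0514 in DNBrg1, DNCHD4, DNSnf2h and parental cells with strength from the libraries with tetracycline. It was -0.148 in DNBrg1 by median hotspot width and -0.0856 in DNSnf2h with a limit of 1000 bp, and within 0.1 of the value given in 41 of 47 cases. That tolerance is wider than the differences themselves, so it cannot show that their sign held. The difference was below 0 in 10 of 12 settings in DNBrg1 and 9 of 12 in DNCHD4. It was below 0 in 4 of 11 settings in DNSnf2h and 2 of 12 in parental cells. The ratio of SDs was 1.04 in parental cells with a limit of 1000 bp, and 1.03 in DNCHD4 and 1.09 in parental cells by median hotspot width. Lower and higher narrow sites as deposited were 596 and 6 in DNBrg1 and 141 and 7 in parental cells. With AveD, 68 were higher in DNSnf2h. With a limit of 1000 bp, lower and higher sites numbered 712 and 199 for DNBrg1, 534 and 92 for DNCHD4, 383 and 121 for DNSnf2h and 89 and 128 for parental cells. By median hotspot width they were 788 and 219, 667 and 124, 432 and 144, and 121 and 153 in that order. At the common threshold they were 22 and 26, 29 and 5, 11 and 7, and 1 and 14. Without the DNSnf2h lists they were 371 and 158 for DNBrg1, 326 and 249 for DNCHD4 and 61 and 93 for parental cells. The last 4 settings also change the number of members, and the cause of the other shifts was not tested. Depth limits single ratios: the median peak density of narrow sites stood for 70 to 281 tags.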

Other observations

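Sites under 800 bp that were listed in 7 of the 8 libraries numbered 2255. The library that did not list them was most often a DNSnf2h one, at 741 sites without and 743 with tetracycline. DNBrg1 cells without tetracycline did not list 500 of them and DNBrg1 cells with tetracycline 218. The parental libraries did not list 32 and 19 of them, without and with tetracycline, and the DNCHD4 libraries 2 and 0. With the DNSnf2h lists left out of the merging, 6282 sites under 800 bp were listed in all of the other 6 libraries.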
